A study of Mus musculus with 66 samples.

Results

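Bdnf, Nptx2, Vgf, Scg2, Pcsk1, Inhba, Tac1, Crh, Penk and Adcyap1 encode proteins that neurons secrete and whose mRNA is known to rise late after neuronal activity. They were taken by symbol from a table of 30084 gene symbols in cultured mouse neurons, and all 10 were among the 16145 genes with enough counts to be tested. When a neuron fires, calcium entry activates kinases and transcription factors such as CREB, and a first wave of mRNAs for transcription factors (Fos, Npas4, Egr1 and others) is made within a short time. A later wave includes mRNAs for growth factors, neuropeptide precursors and the enzymes that process them, whose products are packed into dense-core vesicles and released. In cortical and hippocampal neurons these late genes are widely used as a reading of recent activity.

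The neurons came from wildtype E16.5 mouse embryos, were grown separately from males and females, and were lysed on day 10 in culture. Before day 6, when virus was washed off, they received lentivirus with a short hairpin RNA (shRNA) against Chd8, Kmt2c, Mbd5, Med13l, Setd5, Tbr1, Ash1l, Dnmt3a or Kdm6b, with a nontargeting hairpin, or no virus. Each of these 11 conditions had 3 libraries in each sex, numbered 1 to 3 in the labels, which gave 66 libraries in 22 groups. The dose of each hairpin was meant to lower its target to about 50%, and the target's mean in its group was 22.3% to 54.3% of the nontargeting mean. The cells were from wildtype animals, so a knockdown here is a partial loss of mRNA in a mixed culture. The labels do not say what a replicate number marks or whether libraries of a group came from separate animals, so the p-values measure the spread between these libraries.

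A library held 13759741 to 66558546 counts in total. All 5 neuronal markers were found in every library, with medians in CPM, counts scaled to library size, from 73.3 for Rbfox3 to 1654 for Map2. Syt1 ranged from 105 to 1499 CPM. Markers of oligodendrocyte lineage, microglia and endothelial cells had medians of at most 23.2 CPM, while the astrocyte marker Slc1a3, at 24.6 to 163 CPM, overlapped Rbfox3, at 44.6 to 127 CPM. The target was least lowered, relative to the nontargeting mean, in 3 libraries. The library labelled Setd5 shRNA male replicate 1 held 141 CPM of Setd5, beside a nontargeting mean of 139, and the one labelled Kdm6b shRNA male replicate 1 held 39.9 CPM of Kdm6b, beside 59.9, and results were also computed without both. The library labelled Kdm6b shRNA female replicate 3 held 36.2 CPM of Kdm6b, beside 45.9, and was left out in turn like every other library. RNA of a mixed culture does not tell fewer cells of a type from less RNA per cell.

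The region before the start site was searched for the sequence that CREB is known to bind, the cAMP response element (CRE). RefSeq start sites (GRCm38.p6) were held for 6 of the 10 genes, with 13 start sites in all. These were 7 of Bdnf, 2 of Adcyap1 and 1 each of Scg2, Pcsk1, Inhba and Tac1. None was held for Vgf, Nptx2, Crh or Penk, so whether these carry the element was not examined. Both strands of the 250 bases before each start were searched for the full element TGACGTCA and for its core TGACG, which is contained in the full element. The full element was in 2 of the 13 windows, against 1.55% of 32851 mouse promoters of the same length, and the core in 6 of 13, against 17.8%. The 2 Adcyap1 windows overlap and share their core. Each sequence is 30 bases, 5′ to 3′ on the strand of the gene, with the element in capitals.
Scg2, chr1:79440076-79440105, minus strand, full element: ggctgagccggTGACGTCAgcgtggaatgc
Pcsk1, chr13:75089768-75089797, plus strand, full element: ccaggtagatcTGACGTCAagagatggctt
Pcsk1, chr13:75089795-75089824, plus strand, core: ctttcgtcgattTGACGtgtaaacactcat
Bdnf, chr2:109692389-109692418, plus strand, core: tatgacagctcaCGTCAaggcagcgtggag
Tac1, chr6:7555006-7555035, plus strand, core: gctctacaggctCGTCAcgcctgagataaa
Adcyap1, chr17:93198914-93198943, plus strand, core: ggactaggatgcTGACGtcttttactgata

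In the GENCODE annotation of the same build, the Scg2 element and this Tac1 core lie within an exon of a transcript that starts further upstream, and the Pcsk1, Bdnf and Adcyap1 elements lie in no exon of their gene. The first base of the element was 68 bases before the RefSeq start in Scg2, 78 in Pcsk1 and 35 in the Bdnf window. A second Tac1 core began 197 bases before the start. The Inhba window and 6 of the 7 Bdnf windows held neither form in these 250 bases. A match describes letters and not binding.

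Levels between genes were compared as CPM per kilobase of exon (GENCODE, GRCm38), since longer genes collect more counts. Scg2 (chr1:79434669-79440120, minus strand), a granin that helps form dense-core vesicles, was the most abundant, with a median of 310 CPM per kb over the 66 libraries. Vgf (chr5:137026392-137033351, plus strand), a granin-like precursor of several peptides, followed at 76.6, and Penk (chr4:4133531-4138819, minus strand), the precursor of the enkephalins, at 32.5. Bdnf (chr2:109674700-109727007, plus strand), a neurotrophin that signals through the receptor encoded by Ntrk2, was at 13.2 CPM per kb. Adcyap1 (chr17:93199017-93206537, plus strand), the precursor of the peptide PACAP, was at 12.5. Pcsk1 (chr13:75089826-75134861, plus strand), a convertase that cuts prohormones, was at 11.7. These last 3 lay within a range much smaller than the spread of any of them over the libraries.

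Tac1 (chr6:7554879-7565834, plus strand), the precursor of substance P, had a median of 9.12 CPM per kb. Nptx2 (chr5:144545902-144557478, plus strand), a secreted pentraxin that gathers AMPA receptors at synapses, was at 8.82. The lowest were Crh (chr3:19693401-19695396, minus strand), the corticotropin-releasing hormone precursor, at 1.89, and Inhba (chr13:16011851-16031621, plus strand), the subunit of activin A, at 1.32. All neighbours in this order, from Scg2 to Inhba, overlapped over the libraries. The highest library exceeded the lowest by 3.89-fold for Penk, 4.31-fold for Tac1, 5.19-fold for Scg2 and 7.48-fold for Inhba. It did so by between 10.5-fold and 19.5-fold for Nptx2, Pcsk1, Adcyap1, Bdnf and Vgf, and by 144-fold for Crh, whose lowest library held 6 counts. The strand setting of the counting is not given in the sources used here, so reads from a transcript on the opposite strand of these genes could be included.

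**Figure D1:**
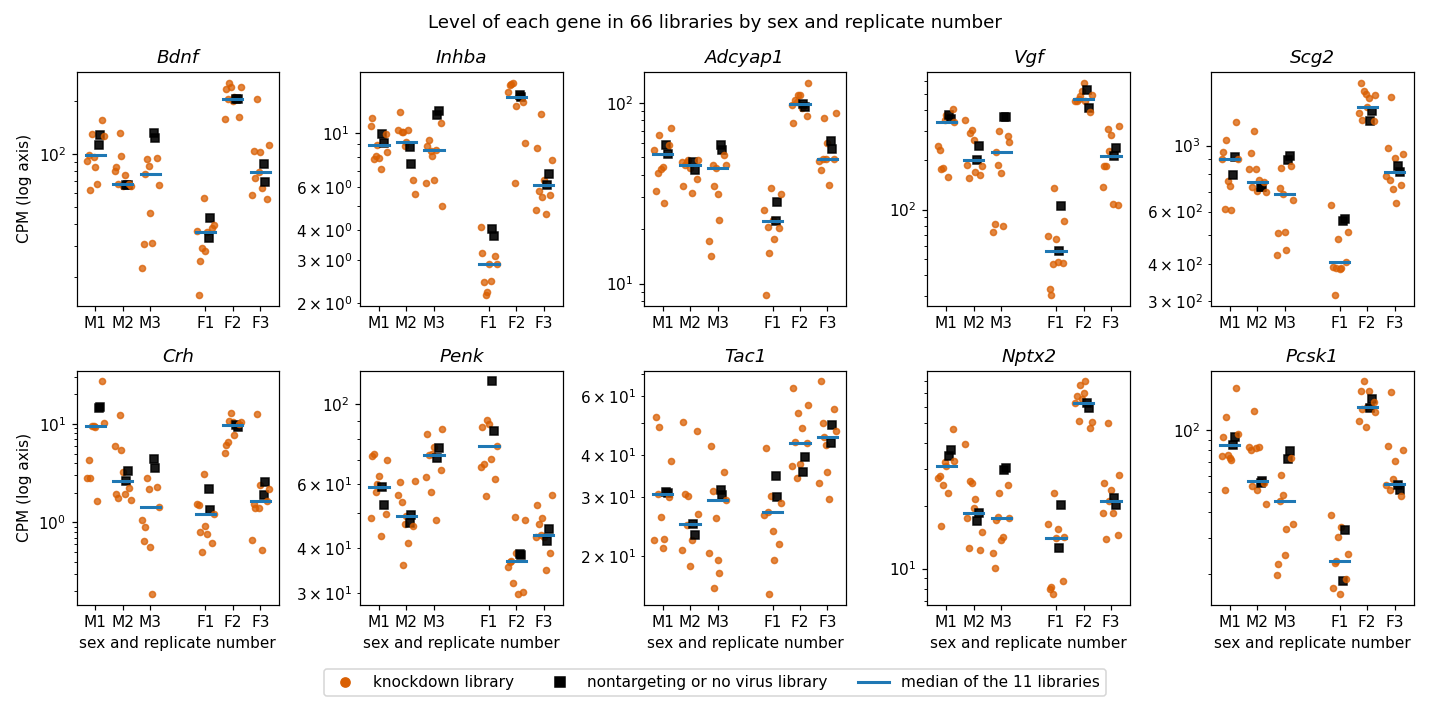
Level of each of the 10 genes (CPM, log axis) in every library, by sex (M, F) and replicate number, with 11 libraries in each column. Circles are knockdown libraries, squares are nontargeting and no virus libraries, and the line is the median; the median of female number 2 is the highest of the 6 columns for 8 genes and the lowest for Penk.

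The largest differences among the libraries followed the replicate number in female cultures. The labels do not say whether libraries of the same number share a culture. The p-values between numbers therefore measure the spread between libraries and not between cultures. A model with a term for the number within each sex found that all 10 genes varied over the 3 numbers in females (edgeR quasi-likelihood test, adjusted p below the threshold), where 72.6% of all genes did. Between numbers 2 and 1, all 10 were called, 9 higher in number 2 and 1 lower, where 65.6% of all genes were called and 32.7% were called as higher. The median size of their log2 difference, without its sign, was 2.22, and that over all tested genes was 0.38. The 10 genes were chosen with earlier results of these data known, so this contrast in size is not a test of the set.

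Among the growth factors and secreted ligands, Bdnf had 15.7, 35.9 and 56.2 CPM as lowest, median and highest of the 11 female libraries numbered 1, and 157, 204 and 254 CPM in those numbered 2. Those ranges did not overlap, and Bdnf was 2.60 higher on the log2 scale (SE 0.21, adjusted p = 5.6e-14). Inhba had 2.16, 2.91 and 4.10 CPM in number 1 and 6.22, 14.1 and 16.1 CPM in number 2, again without overlap. It rose by 2.12 (SE 0.14, adjusted p = 2.58e-18). Adcyap1 had 8.62, 22.2 and 33.9 CPM in number 1 and 77.4, 98.7 and 130 CPM in number 2, without overlap, a rise of 2.21 (SE 0.15, adjusted p = 5.56e-17).

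Of the granins, Vgf showed the largest difference of the 10 genes: 30.3, 55.7 and 136 CPM in number 1 and 387, 466 and 589 CPM in number 2, a rise of 2.96 (SE 0.23, adjusted p = 6.16e-15). No library of one number reached the range of the other. Scg2, whose window holds the full CRE shown above, had 314, 406 and 632 CPM in number 1 and 1212, 1349 and 1629 CPM in number 2, also separate, a rise of 1.60 (SE 0.12, adjusted p = 2.85e-16). Pcsk1, which cuts such precursors, has the other full CRE found in the windows searched, and Vgf and Nptx2 were not searched. Inhba, whose window held neither the full element nor its core, rose by more than Scg2. Whether the element has a part in these rises was not tested. Pcsk1 had 15.9, 23.0 and 38.7 CPM in number 1 and 104, 130 and 173 CPM in number 2. This was a rise of 2.44 (SE 0.21, adjusted p = 1.35e-13 by edgeR). Nptx2 had 7.55, 14.0 and 23.0 CPM in number 1 and 47.3, 62.8 and 79.3 CPM in number 2, a rise of 2.24 (SE 0.20, adjusted p = 4.29e-13).

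Crh, Tac1 and Penk, which encode precursors of other neuropeptides, differed in size and direction. Crh had 0.498, 1.22 and 3.13 CPM in number 1 and 5.10, 9.66 and 12.8 CPM in number 2, without overlap, a rise of 2.77 (SE 0.37, adjusted p = 1.18e-08). Tac1 had 15.4, 27.1 and 42.0 CPM in number 1 and 34.3, 43.7 and 63.7 CPM in number 2, with overlapping ranges, and it rose by 0.73 (SE 0.11, adjusted p = 1.82e-07). Penk went the other way, with 55.8, 76.9 and 116 CPM in number 1 and 29.8, 36.7 and 48.8 CPM in number 2, and it fell by 1.07 (SE 0.07, adjusted p = 2.29e-19). Within each of the 11 conditions, number 2 was above number 1 for the other 9 genes in 11 of 11 and below it for Penk in 11 of 11, the controls included. The ranges of numbers 2 and 1 were separate for 9 of the 10 genes and for 11.1% of all tested genes.

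Female libraries numbered 3 lay between the other 2 numbers for most of these genes. Against number 1, 9 of 10 were called (46% of all genes), with Vgf 1.70 (SE 0.22), Pcsk1 1.41 (SE 0.20), Adcyap1 1.35 (SE 0.15) and Bdnf 1.35 (SE 0.21) higher and Penk lower, at -0.80 (SE 0.07). Crh, at 0.67 (SE 0.40, adjusted p = 0.171 by edgeR), was the exception. Against number 2, 9 of 10 were called (50.9% of all genes), 8 lower and Penk higher, at 0.27 (SE 0.07). Tac1 differed by 0.01 (SE 0.11) between numbers 3 and 2. The library labelled Kdm6b shRNA female replicate 3 held 36.2 CPM of Kdm6b, beside 10.7 and 21.1 CPM in the others of its group. It was the highest of the 11 female libraries numbered 3 for 6 of the 10 genes. Its Bdnf level was 205 CPM, with at most 112 CPM in the other 10 libraries, and its Crh level was 12.5 CPM, with at most 2.57. For Vgf, Adcyap1, Tac1 and Penk it lay within the range of the others. Numbers 2 and 3 had separate ranges for 1 of the 10 genes (4.14% of all genes), Vgf, and for 6 when that library was left out (6.65% of all genes). Leaving out the library that is highest for a gene narrows the range of number 3, so the second count draws on the same values. Without that library all 10 genes still varied over the female numbers.

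In male cultures the differences between numbers were smaller and in another order. Over the 3 numbers, 6 of the 10 genes were called, namely Adcyap1, Crh, Nptx2, Pcsk1, Penk and Scg2, where 28.7% of all genes were. Between numbers 2 and 1 none was called by edgeR (0.378% of all genes), and 3 had an unadjusted p below the threshold, as did 1556 of the 16145 tested genes. Between numbers 3 and 1, 7 were called (24.4% of all genes), 6 lower in number 3 and Penk higher. Crh had 1.66, 9.41 and 27.0 CPM as lowest, median and highest in male number 1 and 0.187, 1.42 and 4.41 CPM in number 3, and fell by 2.42 (SE 0.36, adjusted p = 1.79e-06) with overlapping ranges. Pcsk1 had 51.1, 85.2 and 162 CPM in number 1 and 19.6, 45.4 and 79.2 CPM in number 3, a difference of -0.99 (SE 0.20, adjusted p = 1.87e-04).

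Smaller falls between male numbers 1 and 3 were called for Nptx2, at -0.68 (SE 0.19), Bdnf, at -0.61 (SE 0.20), Adcyap1, at -0.44 (SE 0.14), and Scg2, at -0.35 (SE 0.11). Penk had 43.0, 59.0 and 72.7 CPM in number 1 and 47.9, 72.5 and 85.7 CPM in number 3, and rose by 0.25 (SE 0.07, adjusted p = 0.0033). Penk was thus opposite in sign to Pcsk1, Bdnf, Nptx2, Adcyap1 and Scg2 between numbers 3 and 1 in both sexes. Vgf, at -0.49 (SE 0.21, adjusted p = 0.0846), Inhba, at -0.07 (SE 0.13), and Tac1, at -0.24 (SE 0.11), did not pass (edgeR). The effect of the number differed between the sexes for 10 of the 10 genes, by a test of the interaction that was added after the data were seen (68.9% of all genes).

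**Figure D2:**
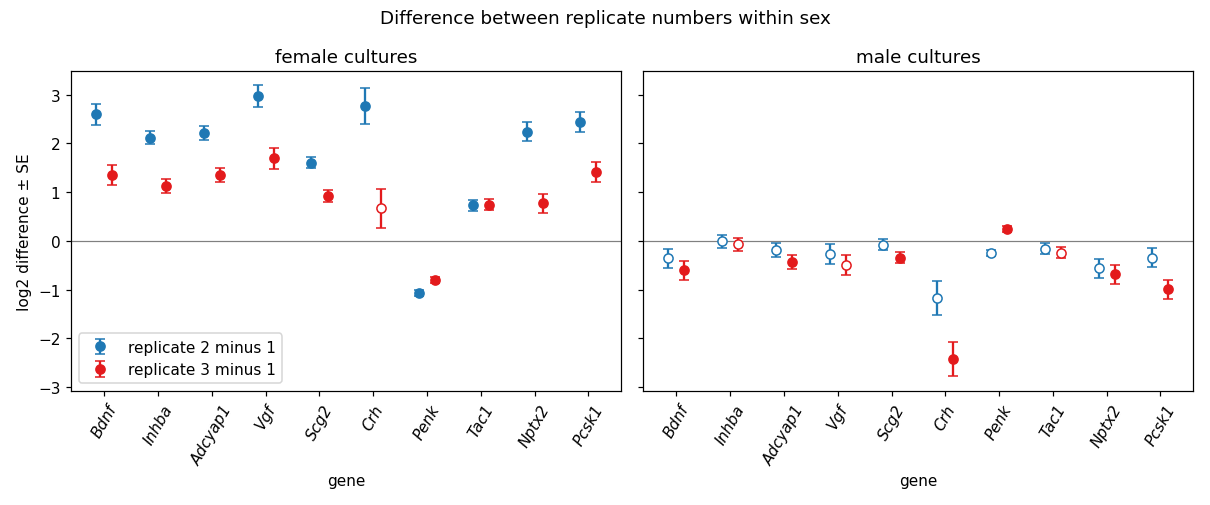
Log2 difference between replicate numbers 2 and 1 (blue) and 3 and 1 (red) for each gene within female and male cultures, with standard errors; filled points passed the adjusted threshold. In females 9 genes are above 0 and Penk is below it for both differences, and in males Crh has the lowest value, at -2.42.

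Most transcription factors that respond to activity were also higher in female number 2. Of a list of 18 such genes with Arc, 16 were called between female numbers 2 and 1 (65.6% of all genes), 15 higher (32.7% of all genes) and 1 lower, with a median log2 difference of 1.52 beside -0.01 for all genes. Klf10 was lower, at -0.52 (SE 0.12), and Arc, at -0.28 (SE 0.14), and Egr3, at -0.37 (SE 0.19), did not pass. Fos, a subunit of AP-1, had 4.12, 10.1 and 38.7 CPM as lowest, median and highest in female number 1 and 122, 159 and 198 CPM in number 2. Its difference was 3.62 (SE 0.31), beside 3.88 (SE 0.31) for Fosb and 3.14 (SE 0.25) for Npas4, a factor induced by calcium entry. Between male numbers 3 and 1, 13 of the 18 were called (24.4% of all genes), 11 lower and 2 higher, with Fos at -1.14 and Npas4 at -1.01. The genes of this and the next lists are named here with their values already seen.

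Genes of prohormone processing and dense-core vesicles were called in 13 of 17 between female numbers 2 and 1, where 65.6% of all genes were, and 11 of the 13 were higher in number 2 (32.7% of all genes). Chgb, a granin, was 1.48 higher (SE 0.10), Pam, which amidates peptides, 1.42 (SE 0.09) and Ptprn, a vesicle membrane protein, 1.21 (SE 0.09), while Scg5, which assists another convertase, was lower, at -0.66 (SE 0.06). Of 26 receptors and binding partners of the secreted products, 18 were called, 10 higher and 8 lower, a share near the 65.6% of all genes. Ntrk2, the receptor of Bdnf, was 0.83 higher (SE 0.08) and Acvr1c, a receptor of the activin family, 2.89 (SE 0.21). The opioid receptors Oprk1 and Oprd1 were lower, at -2.20 (SE 0.30) and -1.40 (SE 0.19), as was Tacr1, the receptor of substance P, at -1.18 (SE 0.17).

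Other neuropeptides were divided, with 12 of 13 called (65.6% of all genes), 6 higher and 6 lower. Pnoc was 2.40 higher (SE 0.18) and Cort 2.22 (SE 0.24), while Vip, at -2.79 (SE 0.19), and Nts, at -1.56 (SE 0.10), were lower. Among CREB, MEF2 and SRF factors with their calcium pathway, 10 of 13 were called (65.6% of all genes), 5 in each direction, with a median of -0.02. Crebbp, a coactivator of CREB, was 0.75 higher (SE 0.07), and Creb1 itself was lower, at -0.16 (SE 0.07).

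Astrocyte markers moved with the number too. All 6 (Gfap, Aqp4, Aldh1l1, Slc1a3, S100b and Gja1) were lower in female number 2 than in number 1, and their summed level was 41.5 to 113 CPM against 106 to 305 CPM. In males all 6 had a higher median in number 3 than in number 1, with sums of 118 to 285 CPM against 41.2 to 144 CPM. Of 7 markers of GABAergic neurons, 3 were called in the female comparison (65.6% of all genes), 1 higher and 2 lower. The sums of the 7 overlapped, at 918 to 1598 CPM in number 1 and 788 to 1506 CPM in number 2. Sums of 5 excitatory markers were 457 to 967 CPM in number 1 and 678 to 835 CPM in number 2. Microglial markers summed to at most 3.09 CPM in any library, and P2ry12 and Tmem119 had a median of 0. The part of cell composition in the differences between numbers was not tested.

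No gene of the 10 passed the test for infection or for sex among the controls. Between nontargeting and no virus cultures, 0 of 10 were called by edgeR in either sex, and 0% of all genes were. None of the 10 had an unadjusted p below the threshold in either sex, while 81 and 185 of all tested genes did in the 2 comparisons. Log2 differences lay from -0.13 to 0.10 in the male and from -0.22 to 0.16 in the female cultures, and their standard errors, from 0.31 to 1.17, were wide beside these values. With the replicate number in the model, which pairs these libraries, 0 were called as well. Between male and female nontargeting cultures 0 of 10 were called (0.0434% of all genes), and the differences ran from -0.49 for Tac1 to 0.68 for Crh.

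The knockdowns were each set against the nontargeting cultures of the same sex. No member and knockdown pair passed in males, 0 of 90, where 2.28% of all gene and knockdown pairs did, and none in females, 0 of 90, where 2.68% did. At an unadjusted p below the threshold there was 1 pair of 90 in males (9.24% of all pairs) and 0 in females (10%). All of these comparisons share the 3 nontargeting libraries of a sex. On the mean of the sexes 1 pair of 90 was called (6.99% of all pairs), Tac1 after Chd8 knockdown. The difference between the sexes was called in 0 of 90 pairs (0.00206% of all pairs), with log2 values from -1.93 to 0.72 and standard errors up to 1.73. Adding the replicate number to the model cut the standard errors, for Bdnf from 0.56 to 0.27 in the Chd8 comparison, and called 6 pairs in males (7.01% of all pairs), 1 in females (7.8%) and 9 on the mean of the sexes (15.5%). Some of these came from comparisons in which the numbers did not pair the libraries, and those are given with the alternatives at the end.

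**Figure D3:**
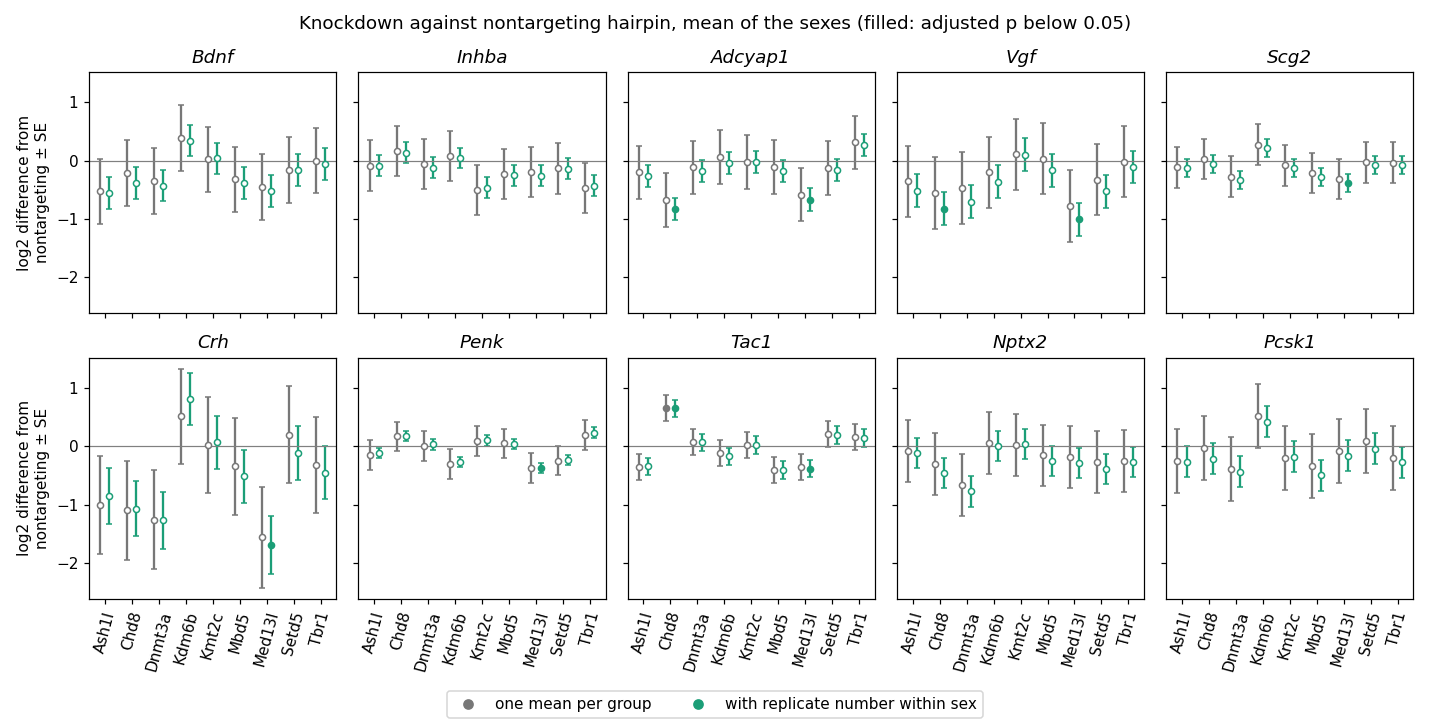
Log2 difference from the nontargeting hairpin, mean of the sexes, for each gene (panel) and knockdown (x axis), with standard errors. Grey points are from one mean per group, green points from the model with the replicate number within sex, and filled points passed the adjusted threshold; Tac1 after Chd8 knockdown is the single filled grey point.

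Chd8 encodes a chromatin remodeller. After its knockdown Tac1 was higher in each of the 6 libraries than in the nontargeting and no virus libraries of the same sex and number. In males the libraries numbered 1 to 3 held 51.9, 50.5 and 42.8 CPM, beside 30.9, 23.1 and 30.5 CPM with the nontargeting hairpin and 31.1, 25.0 and 31.5 CPM without virus. In females they held 42.0, 63.7 and 66.5 CPM, beside 30.1, 39.5 and 49.2 CPM with the nontargeting hairpin and 34.7, 35.7 and 43.6 CPM without virus. The groups did not overlap in males and overlapped in females.

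On the mean of the sexes Tac1 rose by 0.66 on the log2 scale (SE 0.22, adjusted p = 0.0259), in a comparison where 22.3% of all genes were called and 9.85% as higher. Leaving out 1 of the 12 libraries at a time ended this call for 5 of them, namely nontargeting female replicate 1 (adjusted p = 0.0787), nontargeting male replicate 2 (0.072), Chd8 female replicates 3 (0.0633) and 2 (0.0501) and Chd8 male replicate 1 (0.0508), with log2 values of at least 0.58. Against the mean of the other 8 knockdowns it rose by 0.75 (SE 0.16, adjusted p = 1.16e-04), where 34.3% of all genes were called, and no single library ended that call. Taken alone, the male difference was 0.78 (SE 0.32, adjusted p = 0.117), where 9.82% of all genes were called, and the female one 0.54 (SE 0.31, adjusted p = 0.349), where 9.33% were, both from edgeR. Tac1 was also the 1 member that varied over the 9 knockdowns in males (adjusted p = 0.0092), where 29.7% of all genes did, with group means from 19.8 ± 1.31 CPM (SD, n = 3) after Mbd5 to 48.4 ± 4.92 CPM (SD, n = 3) after Chd8 knockdown. In females 0 of 10 varied (34% of all genes), and 0 had an unadjusted p below the threshold, while 6963 of the 16145 tested genes did. With the replicate number in the model 5 members varied in males (61% of all genes), namely Scg2, Tac1, Crh, Penk and Adcyap1, and 3 in females (65.6%), namely Tac1, Penk and Adcyap1. Without the Setd5 and Kdm6b male libraries numbered 1, the Scg2 call in males was lost and Crh was called in females too.

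By a cutoff of 0.1 taken from these data, the replicate number paired the Chd8 and nontargeting libraries in both sexes. The correlations between same-numbered deviations from the group means were 0.159, 0.123 and 0.136 in males, so the male pairing was weak. In females they were 0.465, 0.561 and 0.329. With the replicate number in the model 3 members were called on the mean of the sexes (36.9% of all genes). Tac1 rose by 0.65 (SE 0.15, adjusted p = 4.75e-04), Adcyap1 fell by 0.83 (SE 0.19, adjusted p = 6.03e-04) and Vgf fell by 0.82 (SE 0.29, adjusted p = 0.0199). Adcyap1 had 32.7, 34.6 and 14.2 CPM in the male Chd8 libraries numbered 1 to 3, beside 52.3, 42.3 and 55.1 CPM with the nontargeting hairpin. In females it had 8.62, 77.4 and 42.7 CPM, beside 28.2, 95.6 and 55.5 CPM. Every Chd8 library was thus below the nontargeting library of its number, while the female groups overlapped because the numbers lie far apart. Vgf had 230, 186 and 82.2 CPM in males, beside 356, 241 and 364 CPM with the nontargeting hairpin, and 33.2, 456 and 183 CPM in females, beside 105, 411 and 235 CPM, so that it was lower in 5 of 6 libraries. Leaving out any of the 12 libraries ended neither the Tac1 nor the Adcyap1 call, while the Vgf call was lost without nontargeting female replicate 1 (-0.67), Chd8 female replicate 1 (-0.70), nontargeting male replicate 3 (-0.69) or Chd8 male replicate 3 (-0.68).

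Without the replicate number, neither Adcyap1, at -0.68 (SE 0.46, adjusted p = 0.326), nor Vgf, at -0.56 (SE 0.61, adjusted p = 0.583), passed. Within males the paired model called Tac1, at 0.78 (SE 0.21, adjusted p = 0.0057), and Adcyap1, at -0.93 (SE 0.27, adjusted p = 0.0096), which is 2 of 10 where 22.1% of all genes were called. Without nontargeting male replicate 2 the Tac1 value was 0.65 (adjusted p = 0.054), and without nontargeting or Chd8 male replicate 3 the Adcyap1 value was -0.70 (adjusted p = 0.1) or -0.66 (adjusted p = 0.128), by edgeR. In females it called 0 of 10 (21.1% of all genes), with Tac1 at 0.53 (SE 0.21, adjusted p = 0.0681) and Adcyap1 at -0.71 (SE 0.27, adjusted p = 0.0541). The difference between the sexes did not pass for either gene. The summed astrocyte markers were 41.5 to 106 CPM in the female Chd8 libraries and 102 to 128 CPM in the nontargeting ones, and 58.6 to 141 CPM against 65.9 to 119 CPM in males. The summed GABAergic markers were 998 to 1285 CPM against 1102 to 1598 CPM in females and 1095 to 1376 CPM against 1407 to 1685 CPM in males. The summed neuronal markers were lower after Chd8 knockdown, without overlap in either sex. They were 4154 to 4494 CPM against 4756 to 5415 CPM in females and 4281 to 4845 CPM against 5050 to 5111 CPM in males. Excitatory sums overlapped in both sexes. The part of these sums in the Tac1, Adcyap1 and Vgf differences was not tested.

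**Figure D4:**
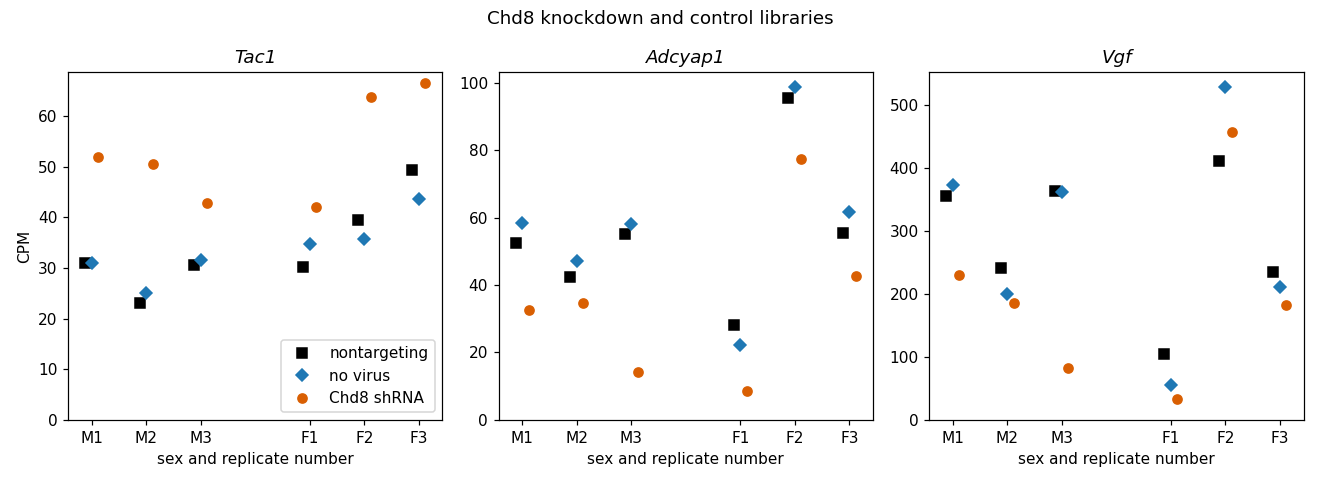
Level of Tac1, Adcyap1 and Vgf (CPM) in each nontargeting (squares), no virus (diamonds) and Chd8 shRNA (circles) library, by sex and replicate number. Tac1 is above both controls at all 6 numbers, and Adcyap1 is below both at all 6.

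Genes that work beside the members were read in the same comparison of Chd8 knockdown with the nontargeting hairpin, first without the replicate number. Adcyap1r1, the receptor of PACAP, fell by 0.57 (SE 0.13, adjusted p = 9.14e-04), Fst, the follistatin that binds activin, rose by 1.13 (SE 0.31, adjusted p = 0.0052), and Nptx1, the pentraxin that assembles with Nptx2, rose by 0.47 (SE 0.16, adjusted p = 0.0215). These were 3 of 26 receptors and binding partners. Ptprn, of dense-core vesicles, fell by 0.96 (SE 0.27, adjusted p = 0.0056), 1 of 17, and Trh, the precursor of thyrotropin-releasing hormone, rose by 1.41 (SE 0.35, adjusted p = 0.0018), 1 of 13 other neuropeptides.

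Of the activity-regulated factors, 1 of 18 was called, Arc, which rose by 0.60 (SE 0.20, adjusted p = 0.022). Of the CREB, MEF2 and SRF list, 3 of 13 were called: Camk2a, a calcium-dependent kinase subunit, fell by 0.75 (SE 0.17, adjusted p = 5.71e-04), Mef2d fell by 0.52 (SE 0.17, adjusted p = 0.0213) and Srf rose by 0.23 (SE 0.07, adjusted p = 0.0117). In that comparison 22.3% of all genes were called. With the replicate number, which paired these libraries, the lists held more calls: 10 of 26 receptors and binding partners, 7 of 17 processing genes, 5 of 13 other neuropeptides, 7 of 18 activity-regulated factors and 7 of 13 of the CREB, MEF2 and SRF list, where 36.9% of all genes were called.

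Setting each knockdown against the other 8 removes the nontargeting libraries from the comparison. With the replicate number, which paired the libraries of both sexes for Chd8, Kmt2c, Mbd5, Med13l, Setd5 and Tbr1, members were called after all 6. After Med13l knockdown (Med13l is a subunit of the kinase module of Mediator) 6 of 10 were called, all lower (49.7% of all genes, 23.4% as lower): Crh at -1.27, Vgf at -0.62, Adcyap1 at -0.49, Tac1 at -0.40, Penk at -0.36 and Scg2 at -0.28. The Scg2 call was lost without the Setd5 and Kdm6b male libraries numbered 1. After Chd8 knockdown 4 of 10 were called (48.3%), with Tac1 at 0.76, Inhba at 0.35 and Penk at 0.25 higher and Adcyap1 at -0.67 lower. After Tbr1 knockdown Adcyap1 was higher, at 0.56, and Penk was higher, at 0.32, 2 of 10 (16.3%). Vgf was higher after Kmt2c knockdown, at 0.63, 1 of 10 (18.4%), Tac1 lower after Mbd5 knockdown, at -0.43, 1 of 10 (16.7%), and Penk lower after Setd5 knockdown, at -0.21, 1 of 10 (29.3%). These values are relative to the other 8 knockdowns. Against the nontargeting hairpin, on the mean of the sexes, the same model called 0 of 10 after Kmt2c (2.97% of all genes), Tbr1 (6.57%), Mbd5 (3.32%) or Setd5 knockdown (16.2%). The highest member value after Kmt2c knockdown was there 0.1. After Chd8 knockdown Inhba and Penk were not among the 3 called. Without the replicate number 1 of 90 such pairs was called (14.9% of all pairs), and with it 21 of 90 (28.2%).

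Penk was the member with the smallest spread, and after Med13l knockdown it was lower than with the nontargeting hairpin at each number. In females it had 70.7, 29.8 and 34.7 CPM in numbers 1 to 3, beside 84.6, 38.2 and 45.1 CPM with the nontargeting hairpin. In males it had 43.0, 41.2 and 47.9 CPM, beside 52.6, 49.3 and 75.6 CPM. The groups overlapped in females and did not in males. The numbers paired these libraries in females, where the paired model gave a fall of 0.33 (SE 0.13, adjusted p = 0.044), 1 of 10 members called where 27.9% of all genes were. That call was lost without any of 5 of the 6 libraries, all but Med13l female replicate 1, with values from -0.35 to -0.28. Summed neuronal markers were 3558 to 4235 CPM against 4756 to 5415 CPM in females, and 3911 to 4224 against 5050 to 5111 CPM in males. GABAergic sums were separate in males, at 935 to 1224 against 1407 to 1685 CPM, and overlapped in females. Excitatory sums overlapped in both sexes. The part of these sums in the differences after Med13l knockdown was not tested.

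Male libraries numbered 3 held a pattern of their own, found after the data were seen. For 7 of the 10 genes all 9 knockdown libraries lay below both control libraries of that number, as did 2.69% of all tested genes. Bdnf had 123 CPM in the nontargeting and 131 CPM in the no virus library, and 22.3 to 95.2 CPM in the 9 knockdown libraries. Vgf had 364 and 363 CPM in these controls and 72.6 to 298 CPM in the knockdown libraries, and Crh had 3.59 and 4.41 CPM against 0.187 to 2.79 CPM. Adcyap1, Inhba, Nptx2 and Scg2 were ordered in the same way. Ash1l, Chd8 and Med13l libraries were the 3 lowest for Bdnf, Vgf and Adcyap1, with Bdnf at 22.3, 30.8 and 30.9 CPM.

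In the other 5 sets of a sex and a number, 0 of the 10 genes were ordered like this, where 1.11% and 0.985% of all genes were in male numbers 1 and 2, and 1%, 1.66% and 0.941% in female numbers 1 to 3. In male number 3 the summed astrocyte markers were 118 to 119 CPM in both controls and 139 to 285 CPM in the knockdown libraries, so these too did not overlap. With 1 library of each condition at a number, this order has no replicate check, and the part of astrocytes in it was not tested.

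**Figure D5:**
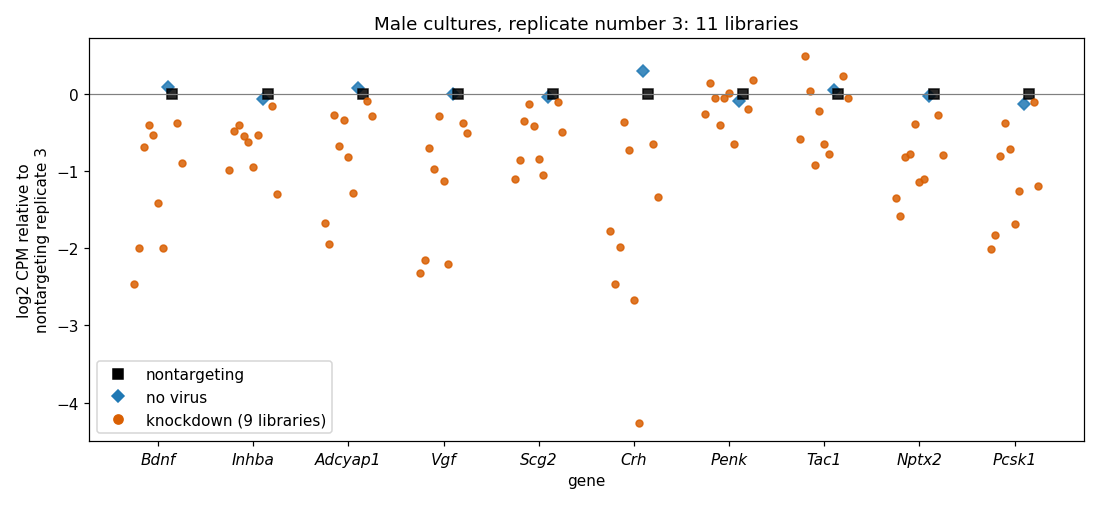
Log2 ratio of each male library numbered 3 to the nontargeting library of that number, for each gene. The square is the nontargeting library, the diamond the no virus library and the circles the 9 knockdown libraries; all circles lie below both controls for Bdnf, Inhba, Adcyap1, Vgf, Scg2, Crh and Nptx2.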

How the data were processed

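Gene expression was measured by RNA sequencing of polyadenylated RNA in 66 libraries (22 groups of 3). The authors deposited one table of whole-number read counts per gene, not normalized. STAR, featureCounts and mm10 are named per the submitters' processing notes, while versions, annotation and strand setting are not given in the sources used here. Columns named for a luciferase hairpin were matched to the nontargeting group. Of the columns, 6 belonged to no sample used here. Rows without a symbol (0.69% to 1.41% of counts) were left out, and rows repeating a symbol were summed. Low counts were mostly even (26.7% odd among counts of 1 to 20, 49.1% among those of at least 1000), so halved counts were tried.

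Tests used edgeR 4.0.16 in R 4.3.3 (filterByExpr, TMM scaling with factors from 0.874 to 1.06, robust quasi-likelihood F test, 1 fit of 66 libraries with a mean for each group). Benjamini-Hochberg adjustment covered the 16145 tested genes of a comparison, threshold 0.05. Log2 differences carry standard errors (SE) from the test statistic. CPM are relative to the scaled library sizes. The fit with replicate number within sex gave the comparisons between numbers. DESeq2 1.42.0 was an alternative. The script was tested on simulated data. Counting error of PCR-amplified reads is not separate from the spread between libraries. Every pair of libraries of a group differed by more than sampling noise (chi-square per gene from 7.92 to 386).

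Numbers were taken to pair libraries where each of the 3 correlations between same-numbered deviations from the group means was over 0.1. This came from the data, not from the labels, and held for 6 of 9 knockdowns in males (not Ash1l, Kdm6b and Med13l), 8 of 9 in females (not Kdm6b), and no virus in both sexes. For a knockdown against the other 8 it held in both sexes for Chd8, Kmt2c, Mbd5, Med13l, Setd5 and Tbr1.

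The 10 members and all lists were chosen with earlier results of these data known. All 10 members were tested in each comparison, and where fewer are named the rest are given as counts or ranges. Also named were, after Chd8 knockdown, up to 4 called genes a list with the smallest adjusted p. Genes named between replicate numbers were chosen after their values were seen.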

Additional observations from a re-analysis of the deposited data

Results flagged for a closer look

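The difference between replicate numbers 2 and 1 was not the same in female and male cultures for any of the 10 genes, by a test of the interaction of number and sex that was chosen after the data were seen (edgeR quasi-likelihood test with Benjamini-Hochberg adjustment). The share of all genes passing for numbers 2 and 1 alone was not computed. A test of the interaction over all 3 numbers was passed by 10 of the 10 genes and by 68.9% of all tested genes. Values here are the female difference less the male one, on the log2 scale. It was largest for Crh, at 3.95 (SE 0.51, adjusted p = 1e-08), and for Vgf, at 3.23 (SE 0.31, adjusted p = 7.11e-12). For Bdnf it was 2.95 (SE 0.29), for Nptx2 2.80 (SE 0.28) and for Pcsk1 2.78 (SE 0.28). For Adcyap1 it was 2.39 (SE 0.20), for Inhba 2.13 (SE 0.19), for Scg2 1.68 (SE 0.16) and for Tac1 0.90 (SE 0.16). Penk had the opposite sign, at -0.83 (SE 0.09, adjusted p = 1.14e-10). The labels do not say that a number marks the same day, litter or batch in both sexes, so sex and what the numbers mark cannot be told apart here. Groups of 3 libraries are too small for a test of single outlying libraries.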

How the results depend on the processing

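DESeq2, other size factors, no filter on low counts, halved counts and no virus as the control gave counts of called members within 1.5 times those reported. None of the called log2 values recomputed under the alternatives changed sign. Fitting each sex alone called 1 pair of member and knockdown in males, Tac1 after Chd8 (0.78, adjusted p = 0.0152 by edgeR), against 0 in the fit of all libraries. The number in males was called for 3 members (Bdnf, Crh and Nptx2, of which Bdnf is not among the 6) when only nontargeting and no virus libraries were used (fewer libraries). It was called for 4 (Crh, Nptx2, Pcsk1 and Penk) with no filter on low counts or without the Setd5 and Kdm6b male libraries numbered 1.

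The replicate block raised the counts to 6 pairs in males, 1 in females and 9 on the mean of the sexes, 21 for a knockdown against the other 8, and 5 members in males and 3 in females that varied over the 9 knockdowns. It called no difference between the sexes, or between infected and uninfected cultures, or between sexes in nontargeting cultures. In the male Med13l comparison, where the numbers did not pair the libraries (2 of 3 correlated best with their own number), the block called Crh at -2.50, Vgf at -1.29, Adcyap1 at -0.89 and Penk at -0.40. On the mean of the sexes it called Crh at -1.70, Adcyap1 at -0.67, Scg2 at -0.39, Tac1 at -0.38, Penk at -0.37 and Vgf, lower too. Against the other 8, unpaired in 1 or both sexes, it called Kdm6b for Crh (1.55), Pcsk1 (0.68), Bdnf (0.65), Scg2 (0.39) and Penk (-0.25) and Ash1l for Tac1 (-0.36). The cause of these changes was not tested.

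The block without those 2 male libraries, chosen after seeing the data, called 7 pairs in males, 2 in females, 13 on the mean of the sexes and 22 against the other 8, and 4 members varied in each sex. It also called Tac1 after Chd8 in females (0.54, adjusted p = 0.0176 by edgeR) and Crh in males (-1.69). Leaving out each library in turn, with the negative binomial dispersions of the fit of all libraries, gave 0 to 2 pairs on the mean of the sexes (0 in the 5 cases named above for Tac1, 2 without Med13l female replicate 2), and 1 to 3 pairs against the other 8. Against the other 8 it was 2 or 3 without Kdm6b female replicate 1, Med13l female replicates 1 or 2, Setd5 female replicate 1 or Kdm6b male replicate 3. With the block the count on the mean of the sexes was 6 to 12 (12 without Kdm6b female replicate 3), and the number in males was called for 4 to 7 members. The block against the other 8 was not refitted with single libraries left out. After Chd8 knockdown the standard error without the block was 0.56 for Bdnf and 0.61 for Vgf. Differences of that size, and clearly larger ones, could therefore not be told from 0. Tac1 in males, at 0.78 with a standard error of 0.32, did not pass in that fit.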
